A study of Mus musculus with 6 samples.

Results

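The genes of the circadian clock were examined in adult cardiomyocytes (CMs) that lack *Cpt1b*. The group consists of 10 genes chosen by name, out of 16448 genes in the deposited RNA-seq table: the activators *Arntl* and *Clock*, the repressors *Per1*, *Per2*, *Per3*, *Cry1*, *Cry2*, *Nr1d1* and *Nr1d2*, and the output gene *Dbp*. All 10 were found as a single row each. RNA came from CMs isolated from hearts of C57BL/6 mice aged 8 to 12 weeks, with 3 samples of αMHC-Cre pos/+;*Cpt1b* fl/fl mice (Cpt1bcKO) and 3 samples of αMHC-Cre pos/+;*Cpt1b* +/+ littermates (CtrlCre). Both groups carry the Cre transgene, whose αMHC promoter is active in CMs from embryonic stages on, so that other cells of the heart keep the gene. The study counts each sample as a separate mouse. Mice were kept under a regular dark and light cycle with free access to food. The hour at which each heart was taken is not given in the sources used here.

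The circadian clock is a feedback loop of transcription that runs in nearly every cell, CMs included. BMAL1, the product of *Arntl*, pairs with CLOCK or its relative NPAS2 and binds E-box sequences, which switches on the *Per* and *Cry* genes, *Nr1d1*, *Nr1d2* and *Dbp*. PER and CRY proteins then block the activators, and the receptors REV-ERBα (*Nr1d1*) and REV-ERBβ (*Nr1d2*) repress *Arntl* through ROR elements. DBP and its relatives HLF and TEF act on D-box sequences. In the heart, as in other tissues, the RNA of *Dbp*, *Nr1d1* and the *Per* genes therefore peaks when *Arntl* and *Npas2* are low, and the reverse holds at the opposite time of day.

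These elements can be read in the promoters of several members. RefSeq promoters (GRCm38.p6) were matched for 9 of the 10 members, all but *Per2*, and the 250 bases before each start site were searched on both strands for the E-box CACGTG, the D-box TTANGTAA and the ROR element TNGGTCA, where N is any base. The stretches below were chosen because they hold the letters of the element by which each gene is tied into the loop, and *Ciart*, an E-box gene that is no member, is added because it varied widely within both groups. Capitals mark the matches, and a ROR element on the minus strand reads TGACCNA. The stretches lie at chr7:113207215-113207464 on the plus strand for *Arntl*, chr4:151044666-151044915 on the minus strand for *Per3*, chr11:69098699-69098948 on the plus strand for *Per1*, chr10:85185055-85185304 on the minus strand for *Cry1* and chr3:95882229-95882478 on the minus strand for *Ciart*, all written 5′ to 3′ along the gene.
*Arntl*: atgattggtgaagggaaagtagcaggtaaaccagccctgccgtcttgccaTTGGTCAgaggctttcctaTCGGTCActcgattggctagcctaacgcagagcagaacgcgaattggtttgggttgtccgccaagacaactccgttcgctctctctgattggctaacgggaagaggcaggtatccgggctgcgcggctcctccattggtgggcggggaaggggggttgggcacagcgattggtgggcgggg
*Per3*: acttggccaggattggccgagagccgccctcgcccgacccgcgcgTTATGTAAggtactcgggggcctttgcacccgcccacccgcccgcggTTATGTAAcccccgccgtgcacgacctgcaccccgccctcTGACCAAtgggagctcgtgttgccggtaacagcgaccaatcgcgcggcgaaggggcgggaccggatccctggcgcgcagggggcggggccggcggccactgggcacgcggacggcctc
*Per1*: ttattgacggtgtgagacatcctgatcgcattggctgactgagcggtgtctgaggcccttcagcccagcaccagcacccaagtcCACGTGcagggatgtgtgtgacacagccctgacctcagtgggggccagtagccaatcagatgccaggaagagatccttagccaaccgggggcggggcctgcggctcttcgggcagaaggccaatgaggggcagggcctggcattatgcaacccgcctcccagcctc
*Cry1*: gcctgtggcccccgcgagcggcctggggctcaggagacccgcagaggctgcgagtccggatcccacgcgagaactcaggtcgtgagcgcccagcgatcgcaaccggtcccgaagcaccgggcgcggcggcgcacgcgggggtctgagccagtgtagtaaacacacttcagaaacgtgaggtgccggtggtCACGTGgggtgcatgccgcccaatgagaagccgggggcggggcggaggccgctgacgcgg
*Ciart*: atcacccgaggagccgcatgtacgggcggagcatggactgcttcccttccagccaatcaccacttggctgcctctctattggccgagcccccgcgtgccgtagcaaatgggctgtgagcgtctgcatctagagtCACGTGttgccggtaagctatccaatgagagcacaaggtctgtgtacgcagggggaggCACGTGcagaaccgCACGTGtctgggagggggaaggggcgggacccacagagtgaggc
*Arntl* has 2 ROR elements, 200 to 194 and 181 to 175 bases upstream of its start. *Per3* has 2 D-boxes, 205 to 198 and 158 to 151 bases upstream, and a ROR element on the minus strand. *Per1* has an E-box 166 to 161 bases upstream and *Cry1* has an E-box 60 to 55 bases upstream, whereas *Ciart* has 3 E-boxes. The window of another *Per1* start, at chr11:69099902-69100151, does not contain the letters of any of these elements. A ROR element was also found before *Cry2*, on the minus strand. The windows of *Clock*, *Nr1d1*, *Nr1d2* and *Dbp* do not contain these letters. Among 32851 RefSeq promoter windows of the same length, 6.02% hold an E-box, 2.06% a D-box and 9.19% a ROR element. At least 2 D-boxes were present in 0.0731%, at least 2 ROR elements in 0.557% and at least 3 E-boxes in 0.0609%. A match is a description of letters and not a measured site.

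Expression is given as normalized counts, that is, read counts that the authors divided by a size factor for each sample and rounded. The values of a sample summed to between 13393411 and 31722217, or between 3146414 and 3551692 without mitochondrial-encoded and rRNA genes. In 4 samples the spacing of low values showed what 1 read is worth, and from it 14.9 to 24.5 M reads on genes were estimated. These estimates include mitochondrial-encoded and rRNA genes, and the highest was that of Cpt1bcKO 3. There 1 read was worth 1.29 normalized counts, against 0.91 and 0.92 in CtrlCre 2 and 3 and 0.682 in Cpt1bcKO 1. Among these 4 samples, a given normalized count thus rests on the fewest reads in Cpt1bcKO 3. The mitochondrial rRNA gene *mt-Rnr2* took 61.8% to 72.6% of the sum in 5 samples and 80.8% in Cpt1bcKO 3. The sex of the mice is not in the labels. *Xist* was high and the Y-linked gene *Ddx3y* was at 0 in CtrlCre 1 and Cpt1bcKO 1 (*Xist* 957 and 1080), and the reverse held in the other 4 samples (*Xist* 23 to 78, *Ddx3y* 576 to 710). *Cpt1b*, the targeted gene, had 1861, 893 and 1443 normalized counts in CtrlCre 1, 2 and 3 and 211, 353 and 285 in Cpt1bcKO 1, 2 and 3, a log2 fold change of −2.27 (limma with Benjamini–Hochberg adjustment, adjusted P = 0.00338). Defining markers of CMs were abundant in all samples, with summed values of 486909 to 596098 over 8 markers in CtrlCre and 306469 to 537004 in Cpt1bcKO samples. All 8 had lower values in Cpt1bcKO CMs (median −0.44 on the log2 scale), 2 with an unadjusted P below 0.05 (7.22% of all genes) and 3 with no overlap between the groups (9.6% of all genes).

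*Dbp*, *Per2* and *Nr1d2* had lower values in Cpt1bcKO than in CtrlCre CMs, but no member passed the test after adjustment over all genes. Of the 10 members, all of which passed the filter on low values, 3 had higher and 7 had lower values in Cpt1bcKO CMs, and their median fold change on the log2 scale was −0.38. Over all 11364 genes tested, 5655 were higher and 5709 lower, and the median was −0.0013. An unadjusted P below 0.05 from limma was reached by 3 members, all of them lower, compared with 13.9% of all genes (7.22% for lower and 6.66% for higher ones). Scaled to the total, *Nr1d2* did not have such a P value (0.0536, limma), nor did it with 1 prior variance for all genes (0.0734), and *Arntl*, a low gene, did when scaled to the total (0.0497). Under that scaling, 1 member (*Arntl*) was higher and 2 were lower with such a P value, and of all 11246 genes tested 1220 were higher and 500 lower. *Arntl* passed the filter with the help of the group in which it was higher, so its P value is not read as support. An adjusted P below 0.05 was reached by 0 members and by 1.57% of all genes. The values of the groups did not overlap in 1 member, *Dbp*, and in 18.7% of all genes (9.6% for lower and 9.13% for higher ones). Fold changes are on the log2(value + 1) scale, which understates the change of low genes.

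**Figure D1:**
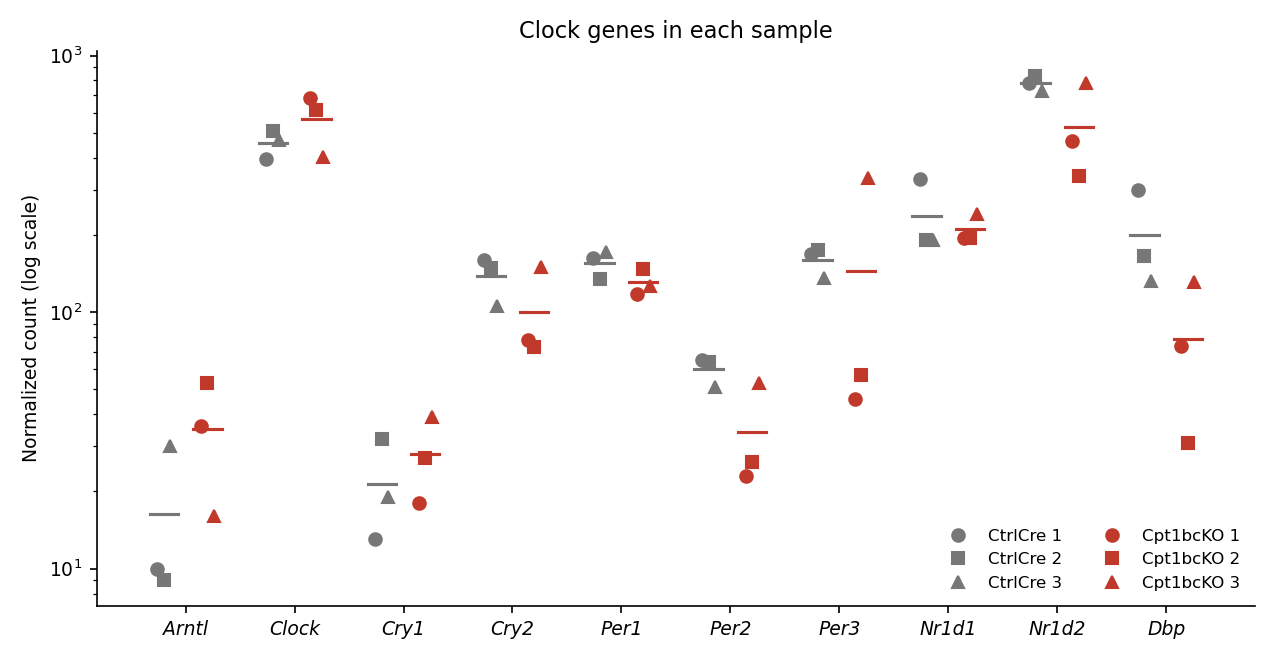
Normalized counts of the 10 clock genes (log scale) in each of the 3 CtrlCre samples (grey) and the 3 Cpt1bcKO samples (red), with bars at the group means and a symbol for each sample number. The triangle of Cpt1bcKO 3 lies apart from the other Cpt1bcKO samples for *Per3*, *Nr1d2*, *Per2*, *Cry2* and *Dbp*, close to or above the CtrlCre samples, and it is the lowest of its group for *Arntl* and *Clock*.

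The activators were higher in Cpt1bcKO 1 and 2 than in every CtrlCre sample, and not in Cpt1bcKO 3. *Arntl* (ENSMUSG00000055116, chr7:113207465-113314126, plus strand, GRCm38) had 10, 9 and 30 normalized counts in CtrlCre 1, 2 and 3 and 36, 53 and 16 in Cpt1bcKO 1, 2 and 3. CtrlCre 3 lay above Cpt1bcKO 3, so the groups overlapped. The groups differed by 1.11 ± 0.535 (limma, log2 fold change ± standard error, unadjusted P = 0.0649, adjusted P = 0.394). These values rest on few reads, and *Arntl* reached the minimum of 10 in only 2 CtrlCre samples, so that it passed the filter with the help of the group in which it was higher and its P values are not read as support. About 10 reads stand behind CtrlCre 2, with a counting interval (95% Poisson) of 4.36 to 16.7 normalized counts, and 12 behind Cpt1bcKO 3, with an interval of 8.02 to 27.1. The 53 reads of Cpt1bcKO 1 gave an interval of 27.1 to 47.3, above that of CtrlCre 2 but overlapping that of CtrlCre 3, where 33 reads gave 20.9 to 42.6. Intervals cover counting error only. An antisense gene shares 33 exon bases with *Arntl* and is not listed in the table. *Clock* (ENSMUSG00000029238, chr5:76209868-76304792, minus strand) had 395, 510 and 470 normalized counts in CtrlCre and 683, 616 and 404 in Cpt1bcKO samples. Here too Cpt1bcKO 1 and 2 were above the CtrlCre range, whereas Cpt1bcKO 3 was near its lower end. The groups differed by 0.28 ± 0.205 (log2 fold change ± standard error, adjusted P = 0.587).

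Among the period genes, *Per2* and *Per3* were low in 2 of 3 Cpt1bcKO samples, and the groups overlapped in all of them. *Per2* (ENSMUSG00000055866, chr1:91415982-91459324, minus strand), a repressor of the CLOCK and BMAL1 pair, had 65, 64 and 51 normalized counts in CtrlCre and 23, 26 and 53 in Cpt1bcKO samples. The groups differed by −0.89 ± 0.324 (limma, log2 fold change ± standard error, unadjusted P = 0.0200, adjusted P = 0.248), and the groups overlapped through Cpt1bcKO 3. *Per3* (ENSMUSG00000028957, chr4:151003652-151044665, minus strand), the gene with 2 D-boxes in the stretch printed above, had 169, 174 and 136 normalized counts in CtrlCre and 46, 57 and 333 in Cpt1bcKO samples. Cpt1bcKO 1 and 2 were below all CtrlCre samples and Cpt1bcKO 3 was above all of them. The samples of Cpt1bcKO thus spanned 7.24-fold from lowest to highest, against 1.28-fold in CtrlCre. The group difference was −0.72 on the log2 scale with a standard error of 0.585 (adjusted P = 0.634). *Per1* (ENSMUSG00000020893, chr11:69095217-69109960, plus strand), which also responds to acute signals, had 162, 135 and 171 normalized counts in CtrlCre and 118, 147 and 127 in Cpt1bcKO samples. Its log2 fold change was −0.25 (95% interval −0.65 to 0.15, adjusted P = 0.576).

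Neither of the cryptochromes, partners of the PER proteins in the repressing complex, passed the test. *Cry1* (ENSMUSG00000020038, chr10:85131700-85185064, minus strand) had 13, 32 and 19 normalized counts in CtrlCre and 18, 27 and 39 in Cpt1bcKO samples. The groups overlapped widely, and the log2 fold change was 0.40 (95% interval −0.51 to 1.31, adjusted P = 0.714). It was 0.11 without CtrlCre 1 and 0.73 without CtrlCre 2. *Cry2* (ENSMUSG00000068742, chr2:92403646-92434043, minus strand) had 160, 148 and 106 normalized counts in CtrlCre and 78, 73 and 150 in Cpt1bcKO samples. Again Cpt1bcKO 1 and 2 were below the CtrlCre range, and Cpt1bcKO 3 was within it. The groups differed by −0.51 ± 0.287 (log2 fold change ± standard error, adjusted P = 0.456). An opposite-strand transcript that shares 295 exon bases with *Cry2* was low, with a mean of 7.5.

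Of the REV-ERB receptors, *Nr1d2* was lower in Cpt1bcKO 1 and 2, while *Nr1d1* was within the CtrlCre range in these samples. *Nr1d2* (ENSMUSG00000021775, chr14:18204054-18239127, minus strand) had 784, 833 and 729 normalized counts in CtrlCre and 465, 338 and 779 in Cpt1bcKO samples. CtrlCre samples lay close together, and Cpt1bcKO 3 fell among them. The groups differed by −0.65 ± 0.255 (limma, log2 fold change ± standard error, unadjusted P = 0.0277, adjusted P = 0.279). *Nr1d1* (ENSMUSG00000020889, chr11:98767932-98775333, minus strand) had 331, 191 and 191 normalized counts in CtrlCre and 195, 195 and 242 in Cpt1bcKO samples. Its fold change of −0.13 (95% interval −0.64 to 0.38, adjusted P = 0.844) rested on CtrlCre 1 and was 0.13 without this sample. *Nr1d1* shares 263 exon bases with *Thra*, a gene on the opposite strand with a mean of 482. Whether strand was used in counting is not given in the sources used here.

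The output gene *Dbp* (ENSMUSG00000059824, chr7:45705088-45710203, plus strand), which encodes a D-box activator, differed most among the members in proportion to its error. It had 300, 166 and 132 normalized counts in CtrlCre and 74, 31 and 131 in Cpt1bcKO samples. The mean was 199 ± 88.8 (SD, n = 3) in CtrlCre and 78.7 ± 50.2 (SD, n = 3) in Cpt1bcKO CMs, that is, 2.53-fold lower. The groups did not overlap, but the lowest CtrlCre sample (132) and the highest Cpt1bcKO sample (131) were nearly equal. The log2 fold change was −1.47 (95% interval −2.49 to −0.44, unadjusted P = 0.00937 and adjusted P = 0.181 from limma). *Sphk2* on the opposite strand shares 539 exon bases with *Dbp* and had a mean of 35.5.

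**Figure D2:**
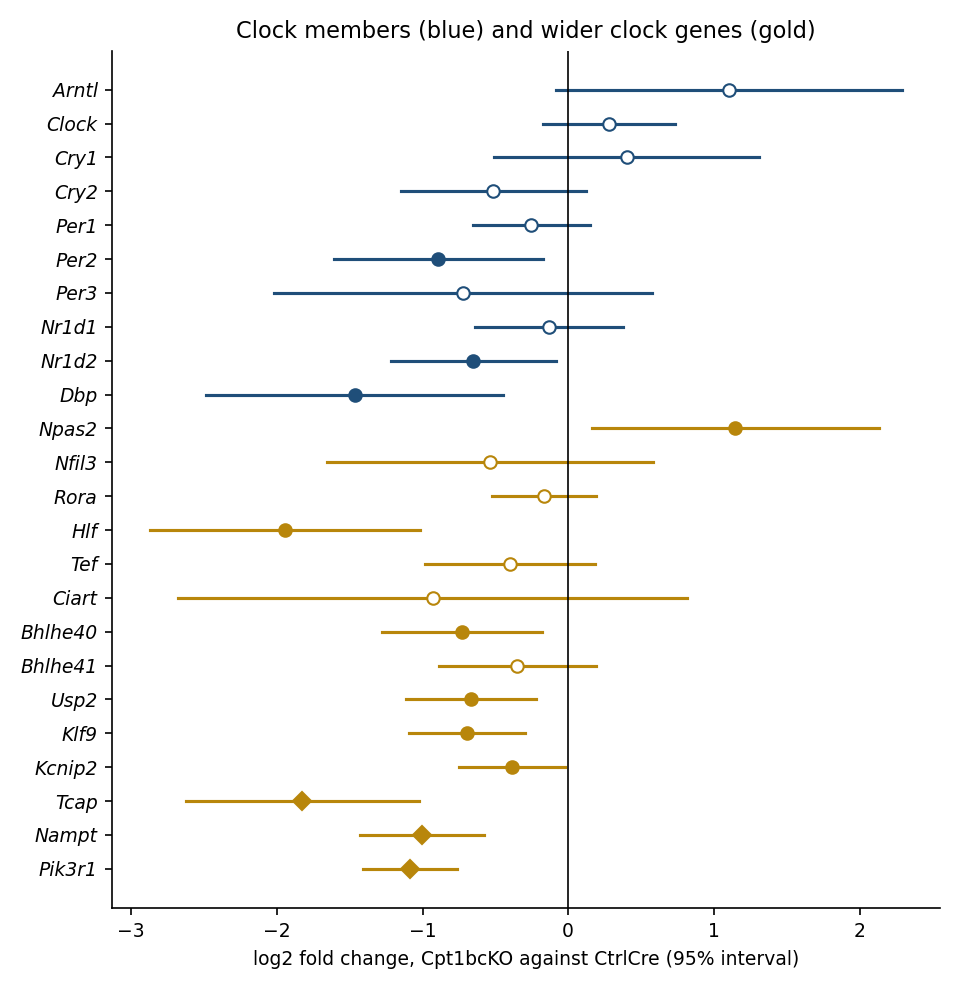
Log2 fold changes of Cpt1bcKO against CtrlCre CMs with 95% intervals from limma for the 10 members (blue) and named genes of the wider clock list (gold). Open circles stand for an unadjusted P of at least 0.05, filled circles for a lower one, and diamonds for an adjusted P below 0.05, reached by *Tcap*, *Nampt* and *Pik3r1*. *Dbp* and *Hlf* lie far to the left with wide intervals, whereas *Arntl* and *Npas2* lie to the right.

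Per kilobase of exon, the order of the members in CtrlCre CMs ran from the REV-ERB receptors to *Arntl*. Normalized counts per kilobase were 145 ± 9.62 for *Nr1d2*, 77.2 ± 26.3 for *Nr1d1*, 66.6 ± 29.7 for *Dbp*, 33.4 ± 4.25 for *Clock* and 27.7 ± 3.33 for *Per1* (SD, n = 3). They were 21.8 ± 4.49 for *Cry2*, 16.6 ± 2.15 for *Per3*, 10.2 ± 1.33 for *Per2*, 6.39 ± 2.91 for *Cry1* and 2.17 ± 1.57 for *Arntl*. Neighbours in this order overlapped within 1 SD except *Nr1d2* and *Nr1d1*, and *Per3* and *Per2*. In Cpt1bcKO CMs, *Nr1d2* was again first (97.5 ± 42.0), *Dbp* lay at 26.3 ± 16.8 behind *Clock* at 41.4 ± 10.6, and *Arntl* (4.65 ± 2.46) remained last.

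The spread between samples of a single genotype was itself large for several members. On the log2 scale, the SD of *Per3* was 1.55 in Cpt1bcKO and 0.19 in CtrlCre samples. *Nr1d2* had SDs of 0.61 and 0.096, *Per2* of 0.63 and 0.19, and *Cry2* of 0.57 and 0.31. *Dbp* varied in both groups, with SDs of 1.03 and 0.61, and so did *Arntl*, with 0.85 and 0.91. The median gene had an SD of 0.29 in Cpt1bcKO and 0.26 in CtrlCre samples. In contrast, *Per1* (0.16 and 0.18) varied less than the median gene in both groups. These spreads were not tested against each other.

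To find out whether the samples differ in clock phase, 10 early-phase genes, which are high when *Arntl* is low (*Dbp*, *Tef*, *Hlf*, *Nr1d1*, *Nr1d2*, *Per1*, *Per2*, *Per3*, *Ciart* and *Bhlhe41*), were set against 5 late-phase genes (*Arntl*, *Npas2*, *Clock*, *Nfil3* and *Cry1*). The mean of the early-phase genes, as log2 difference from the CtrlCre mean, was 0.37, −0.047 and −0.32 in CtrlCre 1, 2 and 3 and −0.94, −1.34 and −0.039 in Cpt1bcKO 1, 2 and 3. Cpt1bcKO 1 and 2 were below all CtrlCre samples, and Cpt1bcKO 3 was among them. The mean of the late-phase genes was 0.018, −0.073 and 0.056 in CtrlCre and 0.41, 0.79 and 0.24 in Cpt1bcKO samples, but the value of Cpt1bcKO 3 came from *Npas2* and *Cry1*, which are low genes, as *Arntl* and *Clock* were inside the CtrlCre range in this sample and *Nfil3* was below it. Late minus early came to −0.35, −0.026 and 0.38 in CtrlCre and to 1.35, 2.13 and 0.28 in Cpt1bcKO samples. Cpt1bcKO 3 thus lay within the range of CtrlCre, and the others lay above it. No test was made of this difference, because its genes were chosen with results of these samples known.

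**Figure D3:**
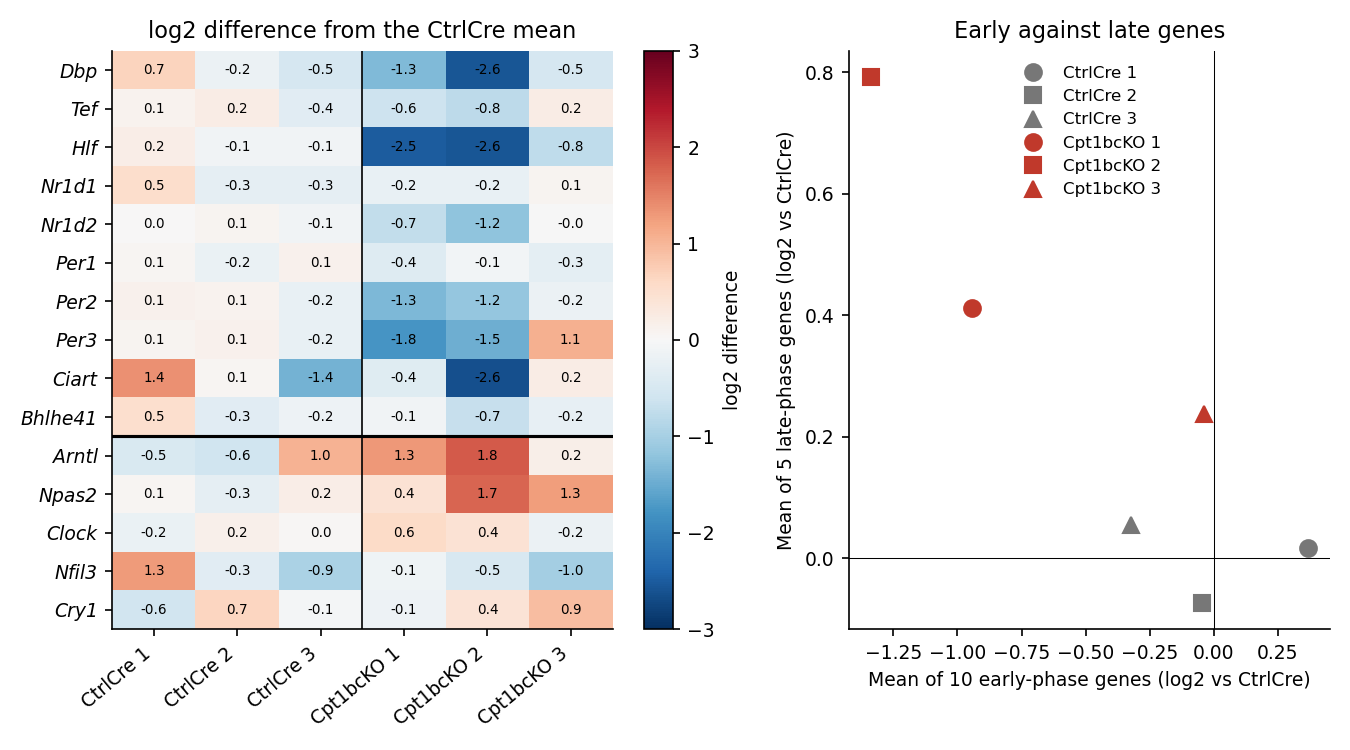
Left, log2 differences from the CtrlCre mean for 10 early-phase genes (above the line) and 5 late-phase genes (below) in each sample. Right, the mean of the early-phase genes (x axis) against the mean of the late-phase genes (y axis), both as log2 differences from the CtrlCre mean: Cpt1bcKO 1 and 2 lie at the upper left, at −0.94 and −1.34 for early-phase genes, and Cpt1bcKO 3 lies at −0.039, near the CtrlCre samples.

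Single genes were also placed against the CtrlCre range. The share of all genes outside this range of 3 samples was not counted for single Cpt1bcKO samples. The counts that follow are therefore description only. Of the 10 early-phase genes, 7 were below the CtrlCre range in Cpt1bcKO 1, 8 in Cpt1bcKO 2 and 3 in Cpt1bcKO 3, in which 6 were within the range and *Per3* was above it. Cpt1bcKO 3 was the highest of its group in 8 of these 10 genes. Of the 5 late-phase genes, 3, 3 and 2 were above the CtrlCre range in Cpt1bcKO 1, 2 and 3, while *Nfil3* was below it in Cpt1bcKO 3 and *Cry1* was highest in that sample. The ratio of *Dbp* to *Arntl* values was 30, 18.4 and 4.4 in CtrlCre and 2.06, 0.585 and 8.19 in Cpt1bcKO samples. CtrlCre samples also differed from each other. CtrlCre 1 was the highest of its group in 6 of 10 early-phase genes, and *Ciart*, the gene with 3 E-boxes, had 96, 38 and 13 normalized counts in CtrlCre and 28, 5 and 43 in Cpt1bcKO samples. With the collection hour of each heart unknown, phase and genotype cannot be told apart in these samples.

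Since Cpt1bcKO 3 stood apart in clock genes, the comparison was examined with each sample left out in turn. The number of members with an unadjusted P below 0.05 (limma) was 1 without CtrlCre 1, CtrlCre 2, Cpt1bcKO 1 or Cpt1bcKO 2, where 10.7%, 12.1%, 19.9% and 8.82% of all genes had such a P value. It was 4 without CtrlCre 3 (11.3% of all genes) and 7 without Cpt1bcKO 3. Both counts include *Arntl*, whose P values are not read as support. In the comparison without Cpt1bcKO 3, 12% of all genes had an unadjusted P below 0.05, and 27.8% did not overlap between groups. Of the 10 members, 7 did not overlap, *Arntl* included. Without Cpt1bcKO 3, *Per3* was at −1.61 on the log2 scale (adjusted P = 0.0112 from limma) and *Nr1d2* at −0.98 (adjusted P = 0.0358), and these 2 members passed the test, compared with 1.32% of all genes. *Dbp* (−1.94, adjusted P = 0.0684) and *Per2* (−1.25, adjusted P = 0.0681) did not pass. Leaving out another Cpt1bcKO sample put *Per3* at −0.20 without Cpt1bcKO 1 and −0.35 without Cpt1bcKO 2, and put *Nr1d2* at −0.37 and *Dbp* at −0.92 without Cpt1bcKO 2. Without Cpt1bcKO 3, *Arntl* was at 1.57, *Clock* at 0.51 and *Cry2* at −0.84, with adjusted P values of 0.241, 0.254 and 0.160. These values describe the other samples only, as Cpt1bcKO 3 was singled out after its values were seen. It was also the sample with the highest share of *mt-Rnr2*, whose part in the result was not tested.

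**Figure D4:**
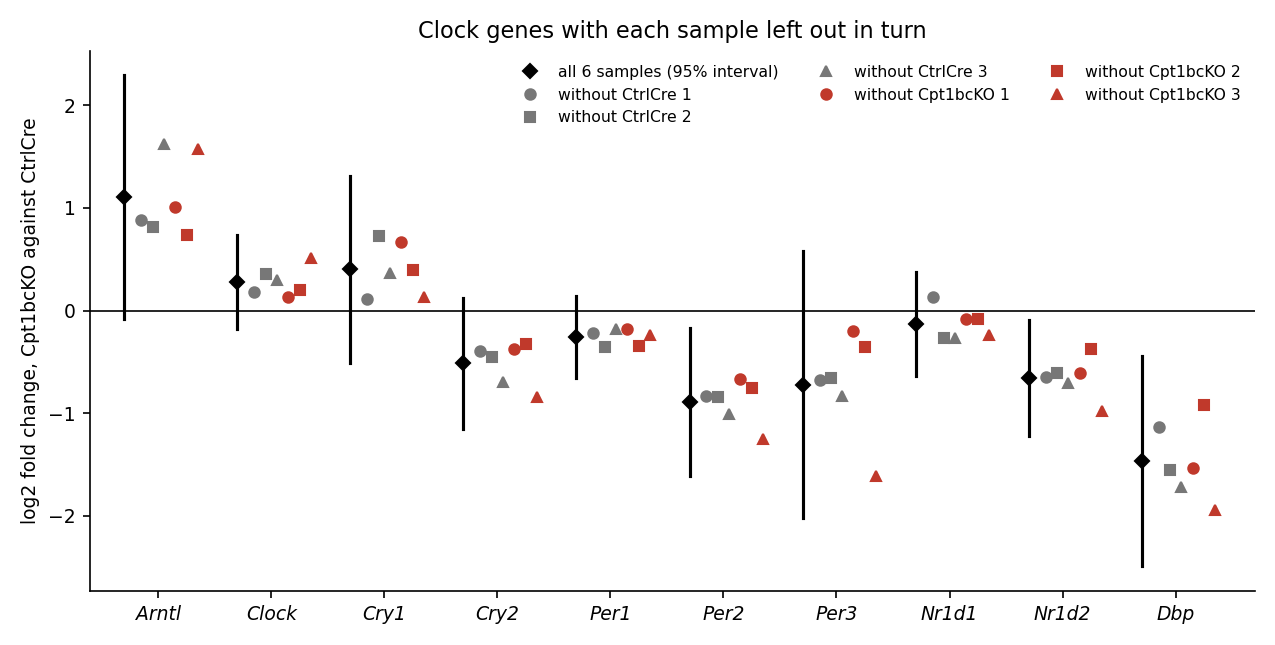
Log2 fold changes of the 10 members with all 6 samples (black diamonds with 95% intervals) and with each sample left out in turn (grey symbols for CtrlCre, red for Cpt1bcKO). Leaving out Cpt1bcKO 3 (red triangles) moved *Per3* from −0.72 to −1.61 and *Dbp* from −1.47 to −1.94, and leaving out CtrlCre 1 turned *Nr1d1* from −0.13 to 0.13.

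Members were also compared within the samples that share high *Xist* (CtrlCre 1 and Cpt1bcKO 1) and within the other 4. The difference of *Dbp* was −2.005 on the log2 scale in the former and −1.20 in the latter, and that of *Nr1d2* was −0.75 and −0.60. *Per2* differed by −1.46 and −0.61, *Arntl* by 1.75 and 0.78, and *Per3* by −1.85 and −0.15. *Nr1d1* changed sign, with −0.76 and 0.18. With this split as a term of the fit, 3 members had an unadjusted P below 0.05, compared with 20.8% of all genes, and 0 an adjusted one, compared with 5.05%. *Dbp* had an adjusted P of 0.0680 (limma) in this fit.

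Among 33 other genes of the clock and its outputs, 31 passed the filter on low values, and 3 passed the test, all of them lower. In total, 6 had higher and 25 had lower values, and the median difference on the log2 scale was −0.35 beside −0.0013 for all genes. The 3 genes stand beside 1.57% of all genes. The list was chosen with earlier results of these data known, so its counts and median are description only. An unadjusted P below 0.05 was reached by 9 genes, 1 higher (*Npas2*) and 8 lower, beside 13.9% of all genes, and the groups did not overlap in 10, beside 18.7% of all genes. Both counts include *Npas2*, which passed the filter on low values only through the Cpt1bcKO samples and is not read as support. The 3 genes that passed the test are listed as outputs under clock control and also serve metabolism and contraction. *Pik3r1*, a regulatory subunit of PI3 kinase, had 1621, 1631 and 1508 normalized counts in CtrlCre and 705, 671 and 879 in Cpt1bcKO samples (log2 fold change −1.09, adjusted P = 0.00618). *Nampt*, which makes the NAD precursor NMN, had 1577, 1434 and 1259 in CtrlCre and 937, 560 and 673 in Cpt1bcKO samples (−1.003, adjusted P = 0.0310). *Tcap*, a Z-disc protein gene, had 3073, 1777 and 2373 in CtrlCre and 520, 428 and 1307 in Cpt1bcKO samples (−1.82, adjusted P = 0.0354). All 3 Cpt1bcKO samples were below CtrlCre for these genes, Cpt1bcKO 3 included, unlike most members. Without Cpt1bcKO 2, none of the 3 passed, with adjusted P values of 0.0556 for *Pik3r1*, 0.164 for *Nampt* and 0.184 for *Tcap* (limma). With 1 prior variance for all genes, none passed either (adjusted P = 0.0761, 0.153 and 0.156 in the same order, limma). Scaled to the total, *Nampt* did not pass (adjusted P = 0.0571, limma). Without CtrlCre 1, 2 or 3, *Pik3r1* passed but *Tcap* (adjusted P = 0.0739 to 0.127) and *Nampt* (0.0860 to 0.118) did not, and *Nampt* also did not pass without Cpt1bcKO 3 (0.0886).

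The named relatives and regulators of the members did not pass the test over all genes with the settings used here, *Hlf* by a small margin. *Hlf*, a D-box activator like *Dbp*, had 156, 126 and 125 normalized counts in CtrlCre and 23, 22 and 79 in Cpt1bcKO samples (log2 fold change −1.94, adjusted P = 0.0520, and from 0.00253 without Cpt1bcKO 3 to 0.249 without Cpt1bcKO 2, with a call in 6 of 16 alternatives), so that Cpt1bcKO 3 was highest in its group but below all CtrlCre samples. *Tef*, the remaining gene of this family, had 404, 438 and 292 in CtrlCre and 240, 215 and 435 in Cpt1bcKO samples (−0.40, adjusted P = 0.547). *Npas2*, the relative of *Clock*, was low in CtrlCre with 9, 7 and 10 and had 12, 31 and 22 in Cpt1bcKO samples (log2 fold change 1.15). It passed the filter on low values only through the Cpt1bcKO samples, so its P value (0.0264 before adjustment, adjusted P = 0.277 from limma) is not read as support. Counting intervals of CtrlCre 3 (5.05 to 18.1) and Cpt1bcKO 1 (7.28 to 19.4) overlapped. *Bhlhe40*, a repressor at E-boxes, had 823, 492 and 410 in CtrlCre and 342, 273 and 390 in Cpt1bcKO samples (−0.73, adjusted P = 0.210), and its relative *Bhlhe41* had 346, 192 and 219 against 226, 151 and 206 (−0.35, adjusted P = 0.569). The D-box repressor *Nfil3* ranged from 20 to 96 in CtrlCre and from 19 to 36 in Cpt1bcKO samples (−0.53, adjusted P = 0.686). *Rora*, a receptor that activates *Arntl* through ROR elements, had 304, 343 and 287 in CtrlCre and 264, 249 and 322 in Cpt1bcKO samples (−0.17, adjusted P = 0.698). Among further genes of the wider clock list with an unadjusted P below 0.05, *Klf9* was at −0.69, *Usp2* at −0.67 and the potassium channel subunit *Kcnip2* at −0.39. Their adjusted P values were 0.102, 0.162 and 0.325 (limma).

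Genes with the pattern most like that of *Dbp* and *Arntl* over the 6 samples were ranked by Pearson's r on the log2(value + 1) scale, counting only genes whose mean reached 50. The points share their libraries and normalization, and no test was made. The 5 genes most like *Dbp* were *Ptpn3* (r = 0.998), *Ctage5* (0.988), *Osbp* (0.988), *Zfp46* (0.985) and *Zfp120* (0.983). Among 6796 genes ranked, *Bhlhe40* came at 76 (0.925), *Nr1d2* at 84 (0.921), *Hlf* at 124 (0.901), *Cry2* at 155 (0.888) and *Tef* at 325, whereas *Per3* came at 899 (0.698), *Nr1d1* at 1207 (0.636), *Per1* at 2824 (0.282) and *Clock* at 6517 (−0.776). The 5 genes most like *Arntl* were *Ube2q1* (0.960), *Ptpa* (0.959), *Arhgef18* (0.946), *Pls3* (0.943) and *Man2b1* (0.943). In that order of 6797 genes, *Clock* came at 292 (0.697), *Per1* at 3170 (−0.049), *Nr1d1* at 5733, *Bhlhe41* at 5761, *Per3* at 6464, *Nr1d2* at 6718, *Cry2* at 6788 (−0.948) and *Tef* at 6791 (−0.949). *Dbp* and *Arntl* had an r of −0.882 with each other.

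The sum of fibroblast markers was higher in all Cpt1bcKO samples. The summed values were 468, 759 and 749 in CtrlCre and 1257, 1223 and 1033 in Cpt1bcKO samples, and 6 of 7 markers could be tested, all higher with an unadjusted P below 0.05 (limma, 6.66% of all genes), 1 with an adjusted one (1.57%) and 5 with no overlap between the groups (9.13%). Endothelial markers summed to 1432, 2700 and 2982 in CtrlCre and 3164, 3233 and 2723 in Cpt1bcKO samples (7 of 7 higher, 2 with an unadjusted P below 0.05, beside 6.66% of all genes). Cpt1bcKO 3 was the lowest of its group for both sums. It had the highest sum of CM markers (537004 against 306469 and 488482), whereas 4 of the 8 CM markers (*Actn2*, *Pln*, *Tnni3* and *Myl2*) were highest in Cpt1bcKO 1. The sum of CM markers rests largely on *Ttn*, with 151007, 340512 and 360030 in Cpt1bcKO 1, 2 and 3. Smooth muscle and pericyte markers (542 to 1836 against 1008 to 1474) and immune markers (43 to 82 against 71 to 83) overlapped between the groups. Their part in the differences of clock genes was not tested. In RNA of whole samples, fewer cells of a type and less RNA per cell cannot be told apart.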

How the data were processed

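RNA-seq of isolated adult CMs was examined in 3 CtrlCre and 3 Cpt1bcKO samples, grouped by their labels. According to the submitters' processing notes and the methods of the study, reads were trimmed with Trimmomatic (0.36), aligned to mm10 (GRCm38.p5) with STAR (2.5.4b) and counted on exons per gene with featureCounts (1.6.0), leaving out reads on several genes or regions. The deposited values are a score in which the authors divided counts by DESeq2 (1.14.1) size factors with rounding to whole numbers, and raw counts are not among them. The annotation release and the use of strand in counting are not given in the sources used here. The fold changes and P values in the deposited table are the authors' own comparison and were not used.

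Values were transformed to log2(value + 1). Genes with at least 10 in at least 3 samples were tested with limma (3.58.1, R 4.3.3; lmFit, then eBayes, whose prior variance followed a trend over expression), as planned for values that are not raw counts, with Benjamini–Hochberg adjustment over all genes tested. The fit was tested on simulated data. Exon lengths are unions of GENCODE vM21 exons. Named genes are *Cpt1b*, the members, fixed genes of the wider clock list (1 of them is not reported here), its genes with an unadjusted P below 0.05, leading genes of each other list and the 5 genes most like *Dbp* and *Arntl*. Members and lists were chosen with earlier results of these data known. Alternatives were other scalings, filters and pseudocounts, no trend, a replicate block, a term for *Xist* and Y-linked genes (added after seeing the data) and leaving out each sample. Depth, given as sums of values and estimated reads, limits the precision of low genes. Python 3.11.15 was used for tables and figures.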

Additional observations from a re-analysis of the deposited data

How the results depend on the processing

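*Cpt1b* kept its direction in all alternatives (−2.56 to −2.03 with a sample left out) but missed the threshold with 1 prior variance for all genes (no trend, −2.27, adjusted P = 0.0563 from limma). Over all genes, 178 adjusted calls became 41 with no trend, 574 with the term for *Xist* and Y-linked genes, 603 with the replicate block and 40 to 305 with a sample left out, and 1578 unadjusted calls became 972 to 2208 with a sample left out. Among members, 3 unadjusted calls became 1 to 7 and 0 adjusted calls became 0 to 2 with a sample left out, and the replicate block gave 1 adjusted call (*Dbp*, adjusted P = 0.0490). Same-numbered samples deviated together with r of 0.376, 0.255 and 0.0684 across genes, and Cpt1bcKO 3 correlated best with CtrlCre 2 (0.147), so the numbers were not taken as pairs. Among the wider clock genes, 3 adjusted calls became 4 with no filter, with at least 10 in every sample or with pseudocount 5, each with *Hlf* (adjusted P = 0.0308, 0.0463 and 0.0434 from limma). Over all genes, the adjusted calls were 212 of 16439, 180 of 9599 and 195 of 11364 in these settings. The 3 adjusted calls of the wider clock genes became 0 with no trend, 5 with the replicate block, 6 with the *Xist* term and 0 to 4 with a sample left out (1 without CtrlCre 1 or CtrlCre 2, 2 without CtrlCre 3, 0 without Cpt1bcKO 2). In the same list, 9 unadjusted calls became 12 with the replicate block and 7 to 11 with a sample left out. With the replicate block, 2362 of all 11364 genes had an unadjusted call. *Nampt* also missed the threshold when scaled to the total (adjusted P = 0.0571). *Nr1d1* turned to 0.13 and *Nfil3* to 0.10 without CtrlCre 1, with ranges of −0.26 to 0.13 and −1.0 to 0.10. The other members kept their direction in all alternatives. The median of the immediate early genes was −0.11 with scaling to the total and −0.42 to −0.062 with a sample left out. That of the glucocorticoid genes was −0.096 with the main settings. It was 0.015 with scaling to the total and −0.37 to 0.12 with a sample left out. With *Arntl* and *Npas2* as the late-phase genes, late minus early was 0.94 in CtrlCre 3 and 1.81, 3.13 and 0.76 in Cpt1bcKO 1, 2 and 3, so that Cpt1bcKO 3 stayed within CtrlCre. Scaling to the total, counted over all but mitochondrial-encoded and rRNA genes, moved the median of all genes to 0.11 and the split of unadjusted calls from 757 higher and 821 lower to 1220 and 500. The cause of these changes was not tested. Depth limits *Arntl*, *Cry1* and *Npas2*, with values near or below 50. Some samples were also low for other genes. *Per2* had 23 and 26 and *Hlf* had 23 and 22 in Cpt1bcKO 1 and 2. *Ciart* had 5 to 43 and *Nfil3* had 19 to 36 in Cpt1bcKO samples.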

Other observations

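Genes of acute responses were counted beside the members. Of 17 immediate early genes, 15 passed the filter on low values, 3 were higher and 12 lower in Cpt1bcKO CMs (median log2 fold change −0.23), and 5 lower ones had an unadjusted P below 0.05 (13.9% of all genes in either direction) and 0 an adjusted one. *Ier3* had 123, 76 and 62 normalized counts in CtrlCre and 38, 34 and 22 in Cpt1bcKO samples (−1.42, adjusted P = 0.0568 from limma). *Egr1* was at −0.64 (adjusted P = 0.143) and *Fos* at −0.83 (adjusted P = 0.205). For *Ier3*, *Egr1* and *Fos*, Cpt1bcKO 3 was the lowest sample of all. For *Junb*, also lower (−0.42, unadjusted P = 0.0168 from limma), it was the highest of its group (352 against 327 and 327). In most early-phase clock genes Cpt1bcKO 3 was likewise the highest of its group. The position of this sample was not counted over all immediate early genes.

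Of 12 genes under glucocorticoid control, 9 were tested, 3 were higher and 6 lower, and none passed the adjusted threshold (limma, 3 with an unadjusted P below 0.05, beside 13.9% of all genes). *Tsc22d3* had 172, 142 and 216 normalized counts in CtrlCre and 114, 116 and 93 in Cpt1bcKO samples (−0.70, adjusted P = 0.153). *Pdk4*, an inhibitor of pyruvate dehydrogenase, had 5605, 3909 and 1573 in CtrlCre and 21655, 8824 and 5458 in Cpt1bcKO samples (1.64, adjusted P = 0.179), with Cpt1bcKO 3 below CtrlCre 1. *Sgk1* was at 0.75 (adjusted P = 0.278). Of 8 genes that follow body temperature, 4 were higher and 4 lower, and 0 passed the adjusted threshold (limma, 1 with an unadjusted P below 0.05, beside 13.9% of all genes). *Hsp90aa1* was at 0.40 (adjusted P = 0.228), *Hspa1b* at 0.96 (adjusted P = 0.374) and *Hsph1* at 0.34 (adjusted P = 0.396).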
